A study of Mus musculus with 6 samples.

Results

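Dense runs are stretches of the genome in which 4 or more accessible intervals (peaks) follow one another closely. They were collected from the merged ATAC-Seq peak list of Beko cells by joining neighbouring autosomal peaks whose edge-to-edge gap was at most 5000 bp and keeping every run with at least 4 peaks. This gave 150 dense runs with 638 peaks, which is 2.00% of the 31879 autosomal peaks, out of 32527 peaks in the whole list. Another 3 runs with 21 peaks lay over the 5S rRNA genes on chromosome 8 and were left out, since 20 of these 21 peaks matched another place in the genome almost exactly. Members were chosen by their spacing, so number, span and gaps are descriptions of the choice. Features that the rule did not read are compared with other peaks. Peak width and the promoter label can still move with spacing.

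Beko cells are mouse T-cell progenitors grown as a line, with Notch signaling switched on permanently. The study profiled them in 6 libraries after 24 h of treatment, 3 with DAPT, a γ-secretase inhibitor (GSI) that stops the release of active Notch, and 3 with DMSO, its solvent. Both groups were the same line. The authors merged all libraries into 1 list of intervals without values per library. Replicate error and any difference between GSI and DMSO can therefore not be given for the dense runs. Intervals in square brackets are 95% intervals that cover counting error alone. Peaks within a run are neighbours and not independent, and no test was made between the dense runs and other peaks. As a check of the cell type, genes with a peak in the gene body were counted. They were 158 of 182 autosomal T-cell genes on a list of known markers and regulators. Other lists had 10 of 24 B-cell, 10 of 29 myeloid, 8 of 21 erythroid and megakaryocyte and 8 of 23 neuronal genes. Among all autosomal protein-coding genes it was 11729 of 21418. Median gene length was 29.3 kb for the T-cell list and 15.5 kb for all coding genes. For the other lists it was 9.4, 8.7, 10.2 and 42.3 kb in the order given. The part of gene length in these counts was not tested.

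In ATAC-Seq, a transposase inserts sequencing adapters where DNA is not wrapped in nucleosomes, so peaks mark promoters and enhancers that are bound by transcription factors. Genes that define a cell lineage are often controlled by several enhancers that sit close together, and such clusters of open sites are one way in which locus-wide control appears in accessibility maps. RBPJ is the DNA-binding factor of the Notch pathway. Its motif is TGGGAA, and a pair of motifs in head-to-head orientation with a short spacer lets 2 Notch complexes bind side by side.

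Of the 638 member peaks, 3 held a head-to-head RBPJ pair with a spacer of 15 to 17 nt (0.470% [0.160 to 1.37]), against 57 of all 31879 autosomal peaks (0.179% [0.138 to 0.232]). These intervals overlapped. Runs of 3 had a pair in 1 of 1764 peaks (0.0567% [0.01 to 0.32]) and runs of 2 in 10 of 6660 (0.15% [0.0816 to 0.276]). The pairs were sought with TGGGAA or TGAGAA at each site, on either strand. They are shown because the arrangement is one that Notch complexes can use, beside single sites, and were read from the mm9 reference in 5′ to 3′ direction on the plus strand. Capitals mark the pair of motif sites.
Upstream of Lta4h, chr10:92900382-92900408: TGGGAAgcactgcccacactgTTCTCA
Tomm34 and Stk4, chr2:163896787-163896814: TGGGAAacagggagcaacgcacTTCCCA
Ldb1, chr19:46120155-46120183: TGGGAAaaggagcactctcctaaTTCTCA
The first pair had a spacer of 15 nt and lay in an intergenic peak of the run with 7 peaks that ends 8646 bp from Lta4h. The second had a spacer of 16 nt and lay in a promoter peak of the run at Tomm34 and Stk4. The third had a spacer of 17 nt and lay in a promoter peak of Ldb1, which encodes a cofactor that links enhancers to promoters.

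Windows of 300 bases are shown for 3 of the peaks with most TGGGAA sites in runs over T-cell genes, because these genes are the ones in which a Notch-responsive T-cell line would be examined first. Sites on either strand are in capitals, so TTCCCA is a site on the minus strand.
Ccnd3 intron, chr17:47732686-47732985: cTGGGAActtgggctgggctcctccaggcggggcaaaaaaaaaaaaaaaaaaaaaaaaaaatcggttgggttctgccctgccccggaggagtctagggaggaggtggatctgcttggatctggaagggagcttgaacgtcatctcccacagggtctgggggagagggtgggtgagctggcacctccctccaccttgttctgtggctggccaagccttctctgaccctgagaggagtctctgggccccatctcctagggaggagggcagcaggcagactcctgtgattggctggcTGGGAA
Stat3 gene body, chr11:100759309-100759608: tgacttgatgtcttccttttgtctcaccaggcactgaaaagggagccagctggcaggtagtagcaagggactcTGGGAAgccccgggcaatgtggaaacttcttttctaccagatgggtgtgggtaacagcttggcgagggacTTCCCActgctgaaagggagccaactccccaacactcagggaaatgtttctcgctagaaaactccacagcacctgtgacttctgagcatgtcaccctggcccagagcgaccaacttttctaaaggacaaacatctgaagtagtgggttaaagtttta
Upstream of Csk, chr9:57498733-57499032: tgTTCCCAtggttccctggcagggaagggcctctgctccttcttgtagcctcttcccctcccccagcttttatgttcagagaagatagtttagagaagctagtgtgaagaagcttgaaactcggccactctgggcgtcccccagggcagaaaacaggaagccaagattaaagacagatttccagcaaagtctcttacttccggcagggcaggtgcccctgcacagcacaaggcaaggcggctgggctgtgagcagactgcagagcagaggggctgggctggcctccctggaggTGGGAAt
The peak in the Ccnd3 intron (chr17:47732555-47733132) held 4 sites, of which the window shows 2. The peak in Stat3 (chr11:100759309-100760118) held 3 sites and the window shows 2. The peak upstream of Csk (chr9:57498606-57499179) held 2 sites, both in the window. None of these peaks carried a head-to-head pair.

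Most dense runs were only as long as the rule demands. There were 124 runs of 4 peaks, 16 of 5, 8 of 6 and 2 of 7. The runs spanned 2.30 to 21.3 kb, with a median of 10.3 kb, and their peaks covered 11.9% to 79.6% of the span, with a median of 24.2%. Together they spanned 1582.5 kb, of which 376 kb lay inside peaks. The 488 gaps ranged from 98 to 4995 bp around a median of 2505 bp. Short gaps under 1000 bp (131) and long gaps of 4000 bp or more (116) were both frequent, as the histogram of gaps shows.

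**Figure D1:**
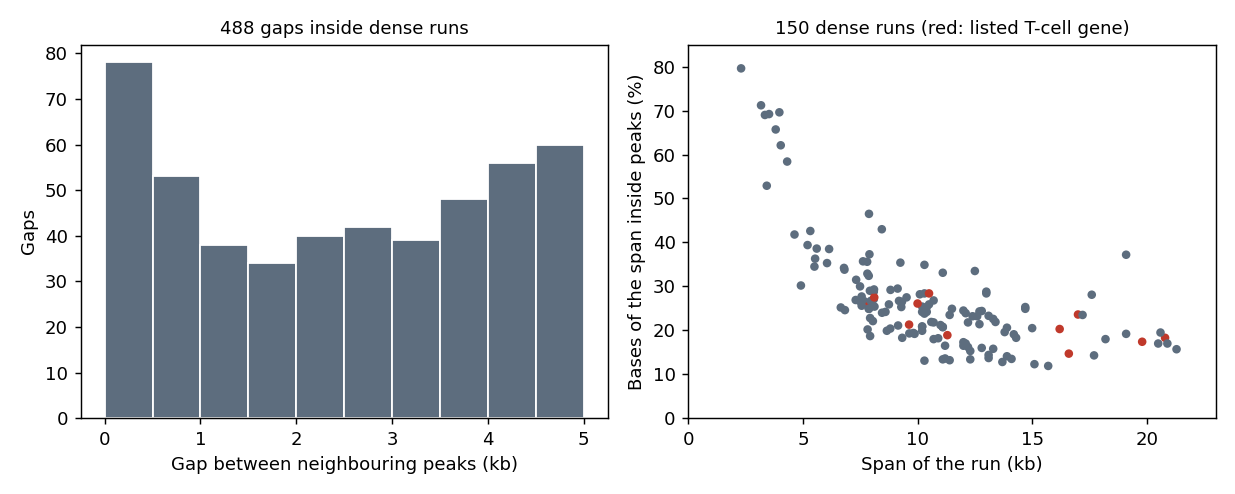
Left, histogram of the gap between neighbouring peaks of a dense run in kb, in bins of 0.5 kb, over all 488 gaps. Right, share of the span that lies inside peaks in percent against the span in kb, 1 point per dense run, with the 11 runs in listed T-cell genes in red. The 9 short runs with at least 50% of the span inside peaks are at the upper left. The limit cuts a continuous range, with 52.9% at Rcc2 just above it and 46.5% at Hes7 just below.

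A group of 9 compact runs, singled out after their values were seen, had at least 50% of the span inside peaks. They lay at Bad, Klf3, Ubtf, Kdm6b, Bmp7, Arid2, Junb, Myc and Rcc2. The run at Bad, a pro-apoptotic BCL2 family member, was the most compact, with 4 peaks in 2.30 kb and 79.6% covered. The run at Ubtf, which encodes a factor for transcription of ribosomal RNA genes, consisted of 4 promoter peaks in 3.97 kb. At Junb, an AP-1 subunit, 4 peaks stood within 4.03 kb and covered 62.1%.

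The threshold cut through a continuous range. Of the 150 runs, 82 depended on a gap of at least 4000 bp to reach 4 peaks. Just inside were runs whose deciding gap was 4995 bp (chr5:106071334-106084153, no coding gene, nearest start Lrrc8d), 4988 bp (Tomm34 and Stk4) and 4987 bp (Amz2). Just outside were runs of 3 peaks whose next peak followed at 5012 bp (Lnx2), 5015 bp (Tnk2) and 5024 bp (Ldlrad3). None of these 6 lay in a listed T-cell gene.

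The question of how many runs lie in T-cell genes was answered with 182 autosomal genes known for roles in T cells. Of the 150 dense runs, 11 with 53 peaks overlapped the body of such a gene (7.33% [4.14 to 12.7]). They belonged to 10 genes, which included Bcl11b, Ccnd3 with 2 runs, Cd52, Coro1a, Csk, Id3, Il2ra, Jak3 and Stat3. Thus 5.49% [3.01 to 9.82] of listed T-cell genes carried a dense run. Among all autosomal protein-coding genes, 193 of 21418 did (0.901%). T-cell genes were longer than coding genes in general (median 29.3 against 15.5 kb) and held more peaks in the body (median 2 against 1). Among genes with at least 4 peaks in the body, 7 of 55 T-cell genes (12.7%) and 82 of 1224 coding genes (6.70%) carried a dense run. This T-cell share rests on 7 genes and has no interval, so a difference among such genes is not shown. Length and peak number thus move with the difference, and their part in it was not tested.

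The share of runs in a T-cell gene was higher the more peaks a run had. It was 1.26% [1.12 to 1.41] of 22796 single peaks, 2.31% [1.85 to 2.88] of 3330 runs of 2, 4.93% [3.46 to 6.99] of 588 runs of 3 and 7.33% of dense runs. A longer run has more chances to meet a gene, so runs were also assigned to the nearest coding start. By that measure the shares were 2.58%, 3.69%, 6.63% and 7.33%. The interval of the dense runs overlapped that of runs of 3 by either measure and lay above that of single peaks. It lay above that of runs of 2 by gene body. By nearest coding start it overlapped that of runs of 2 ([4.14 to 12.7] against [3.1 to 4.39]). With 10 kb added to both ends of each gene, 12 dense runs were in T-cell genes, the added one lying by Trbc2.

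By role, none of 15 genes of the T-cell receptor (TCR) complex and its coreceptors carried a dense run. The other roles were represented by 2 of 38 TCR signalling genes (Csk and Coro1a), 3 of 51 transcription factors (Bcl11b and Id3 among them), 3 of 22 cytokine receptor and signalling genes (Il2ra, Jak3 and Stat3), 1 of 40 surface genes (Cd52) and 1 of 16 recombination and survival genes (Ccnd3). Of the lists for other lineages, the B-cell list had 0 of 24 genes with a dense run, the erythroid and megakaryocyte list 0 of 21 and the neuronal list 0 of 23. For lists of this size, 0 allows shares of up to 13.8%, 15.5% and 14.3% (upper Wilson limits), and these ranges overlap that of the T-cell list. The myeloid list had 1 of 29, Cebpb, which encodes a C/EBP transcription factor.

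Among TCR signalling genes, Csk encodes the kinase that holds SRC family kinases such as LCK in check. Its run (chr9:57488008-57508771) was among the longest, with 7 peaks of 377 to 688 bp over 20.8 kb. A promoter peak covered the Csk start, 1 peak lay in an intron and 5 peaks extended upstream as far as 14700 bp from the nearest transcript start. The 7 peaks held 5 TGGGAA sites in 4 of them. Coro1a encodes an actin-binding protein needed for T-cell survival. Its run (chr7:133838725-133855765) spanned 17 kb with 6 peaks, 5 of them promoter peaks, and also took in Slx1b and Bola2. The Csk run was thus mostly intergenic, whereas the Coro1a run was mostly made of promoter peaks and reached the starts of 3 coding genes, Coro1a among them.

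Among transcription factors, Bcl11b, which encodes a factor needed for commitment to the T lineage, had 4 intronic peaks in 9.63 kb (chr12:109157064-109166697). They lay 74927 to 84296 bp from the nearest start, well inside the gene. This was the single dense run on chromosome 12. Id3, which encodes an inhibitor of E proteins, had a run of 4 peaks around its start.

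Among cytokine receptors and signalling genes, Il2ra encodes the α chain of the interleukin 2 receptor (CD25), a marker of early thymocytes. Its run (chr2:11574995-11586248) consisted of 4 intronic peaks in 11.3 kb. The last of them was 1038 bp wide, against 284 to 407 bp for the other 3. A TGGGAA site was found in 1 of the 4. Jak3 encodes the kinase that signals from receptors with the common γ chain. Its run (chr8:74184610-74200797) had 5 peaks in 16.2 kb, with 2 promoter peaks and 3 peaks in introns, and also covered Unc13a. The promoter peaks came last in genomic direction, and Jak3 is on the plus strand. The intronic peaks thus lay before the Jak3 start reached by the run, 3172 to 10547 bp from the nearest transcript start. Stat3 encodes a transcription factor downstream of cytokine receptors. Its run (chr11:100749636-100760118) lay inside the gene body towards the 3′ end, with 4 peaks in 10.5 kb. Of these, 3 were promoter peaks, at the starts of short transcripts annotated there and not at the start of the full-length gene, and all 3 TGGGAA sites were in 1 peak. The neighbouring gene is Stat5a.

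Ccnd3 encodes cyclin D3, needed for the expansion of pre-T cells, and was the one T-cell gene with a pair of dense runs. The first (chr17:47638745-47648785) had 4 peaks in 10.0 kb, 2 at promoters and 2 in introns, and began at Taf8. The second (chr17:47730172-47738276) had 4 peaks in 8.11 kb, began at another start of Ccnd3 and reached Bysl, 81.4 kb from the first. It held 7 TGGGAA sites in 3 peaks, against 2 sites in 2 peaks for the first. Cd52, a surface glycoprotein of lymphocytes, shared a run of 5 peaks with Aim1l (chr4:133634628-133651207), with 3 promoter and 2 intronic peaks over 16.6 kb. A further dense run of 5 peaks at Ubxn11 and Sh3bgrl3 followed 21.6 kb further along the chromosome.

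Of 53 Notch pathway genes, 2 carried a dense run, Hes7 and Myc (3.77% [1.04 to 12.8]). The share of all autosomal protein-coding genes was 0.901% [0.783 to 1.04], and these intervals met at 1.04%. Of Notch pathway genes with at least 4 peaks in the body, 0 of 7 carried a dense run, against 82 of 1224 coding genes (6.70%). Hes7 encodes a HES family repressor. Its run (chr11:68931253-68939128) had 5 peaks in 7.88 kb, 46.5% of which lay inside peaks. None of the peaks was within 1 kb of the Hes7 start, and the nearest ended 1329 bp from it. The 3 promoter peaks lay by starts of the transcript 9130213A22Rik and of Aloxe3. Myc, an oncogene induced by Notch in T-cell leukaemia, had 4 peaks in 4.31 kb (chr15:61814845-61819154), 3 at promoters, with 3 TGGGAA sites in 2 peaks.

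**Figure D2:**
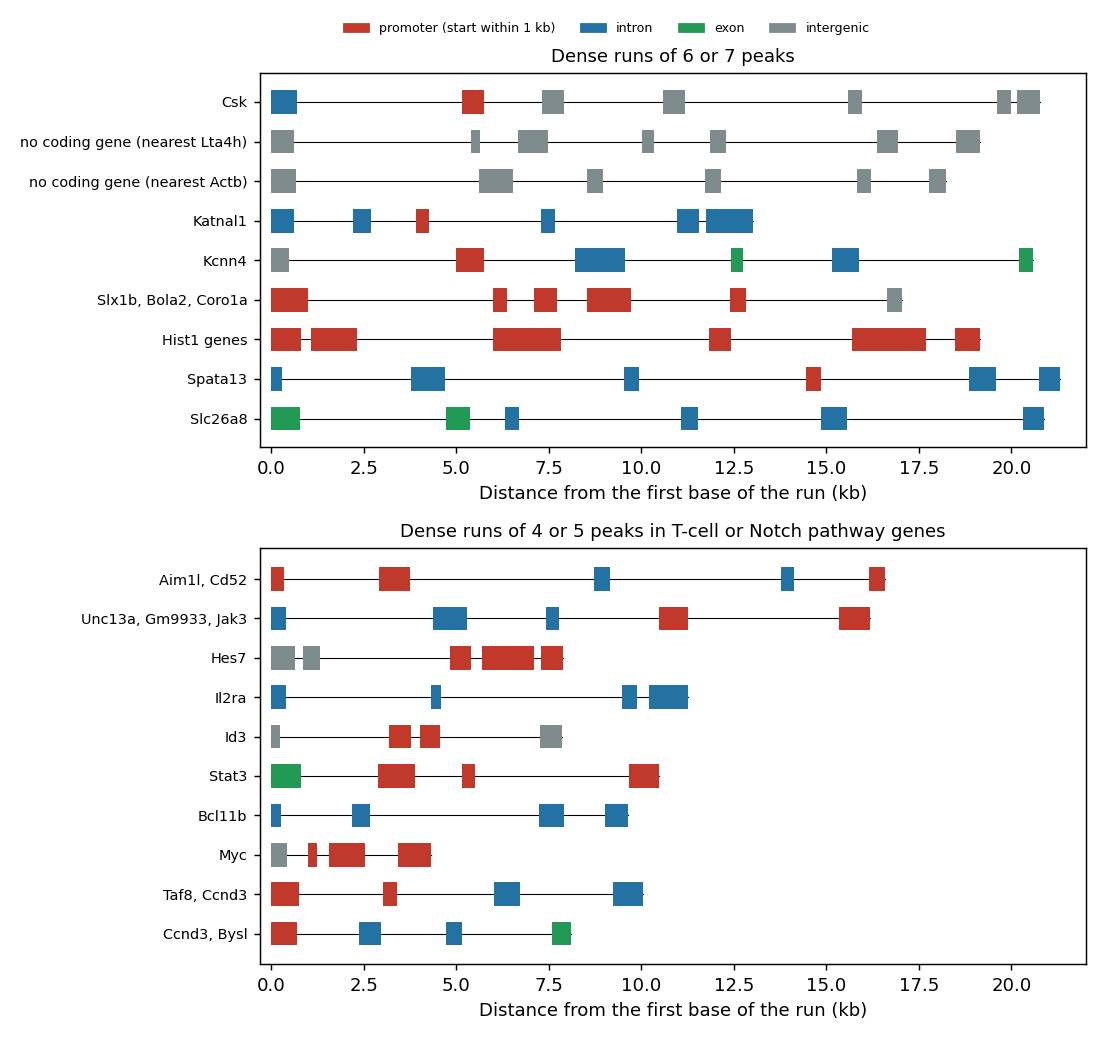
Maps of 9 dense runs with 6 or 7 peaks (top) and of the 10 further runs in T-cell or Notch pathway genes (bottom), 1 run per line in genomic direction. The horizontal axis is the distance in kb from the first base of the run, boxes are peaks drawn to scale, and colours give the position at a promoter, in an intron, in an exon or between genes. The run at Csk is mostly intergenic, that over the Hist1 genes consists of 6 promoter peaks, and those at Il2ra and Bcl11b are wholly intronic.

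Further runs of 6 or 7 peaks lay in varied places. The run near Lta4h (chr10:92888354-92907495) had 7 intergenic peaks over 19.1 kb, of which 5 held a TGGGAA site and 1 the head-to-head pair shown above. A run of 6 intergenic peaks (chr5:143682211-143700441) lay 13778 bp from Actb. The run over the Hist1 genes (chr13:23836876-23856015) had 6 promoter peaks that served 8 replication-dependent histone genes, and it included the widest member peak, of 2001 bp (chr13:23852573-23854573). No peak of this run had a near-identical copy elsewhere. The runs at Katnal1 (chr5:149777366-149790387, 13.0 kb) and Spata13 (chr14:61336425-61357744, 21.3 kb) lay within 1 gene each, with 5 intronic peaks and 1 promoter peak. At Kcnn4 (chr7:25149748-25170326), which encodes a calcium-activated potassium channel used by T cells, 6 peaks spanned 20.6 kb. The run at Slc26a8 (chr17:28774450-28795325) had 4 intronic and 2 exonic peaks and no promoter.

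Starts of protein-coding transcripts lay within 1 kb of a member peak for 94 runs. In 10 of them the starts of 3 or more coding genes were reached. Besides the runs at Coro1a, Jak3 and the Hist1 genes above, these were a second histone run (Hist1h2ai, Hist1h2bl, Hist1h2bm and Hist1h3h) and runs at Maz and Prrt2, Fastk and Agap3, Nprl2 and Rassf1, Cirbp and Efna2, Gabarap and Dvl2, and Abhd15 and Trp53i13. In 19 runs the starts of 2 coding genes were reached. Apart from Ccnd3 with Taf8, Cd52 with Aim1l, and Tomm34 with Stk4, these were Sh3bgrl3 with Ubxn11, Rhof with Setd1b, Plekhg2 with Zfp36, Lgals1 with Nol12, Ttf1 with 1700101E01Rik, Fhl3 with Sf3a3, B9d2 with Tgfb1, Orai3 with Setd1a, Pml with Stoml1, Hic1 with Ovca2, Rab37 with Slc9a3r1, Fkbp5 with E230001N04Rik, Tap2 with Gm20496, Ppt2 with Prrt1, Lta with Ltb, and Dus3l with Nrtn. Lta and Ltb encode the lymphotoxin chains and Tgfb1 a cytokine that restrains T cells.

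The start of 1 coding gene was reached in 65 runs. Besides those named above, the genes included Kcnh2, Ccnd1, Camk2b, Chdh, Mettl7a1, Mbp, Ctdsp1, Ramp1, Kif21b, Hrh3, Slc17a9, Tpd52, Mbnl1, Akna, Ptprf, Zfp593, Abcb8, Tapt1, Tsc22d4, Ninj2, Dpf1, Carkd, Fcho1, Pdp2, Gse1, Ttc12, Anp32a, Cdh23, Pias4, Per1, Traf4, Gm11444, Dhx40, Sstr2, Ict1, Gm11744, Auh, Ptch1, Colq, Epb4.9, Nhp2l1, Ccdc134, Slc48a1, Grm4, Gypc, Cxxc5 and Ablim1. Ccnd1 is a cyclin D gene like Ccnd3, Ptch1 encodes the Hedgehog receptor and Per1 a component of the circadian clock.

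No coding start lay within 1 kb of a member peak in the other 56 runs. Of these, 23 lay wholly inside 1 coding gene, at Katnal1, Il2ra, Stat3, Bcl11b and Kdm6b, already named, and at Atp2b4, Kif5c, Ttc39a, Sorcs2, Abcb9, Lrguk, Atf7ip, Ccdc162, Chst11, Edaradd, Hivep1, Cldn10, Trappc9, Clec16a, Arid1b, Pde10a, Cpne5 and Ttc7. In 12 runs a gene was overlapped with no coding start within 1 kb of a member peak, and the genes were Slc26a8, Lmna, Wnt6, Mrpl33, Clip2, A430110N23Rik, Il12rb1, Stac3, Vmp1, Scube1, Grasp and Gm20508. The starts of Wnt6 and Il12rb1 lay inside the span of the run, between peaks. Il12rb1 encodes a chain of the interleukin 12 receptor, which is used by T cells but was not on the list. Lmna, for lamin A, had the lowest covered share of all runs, 11.9% of 15.7 kb, with 7 TGGGAA sites in 4 of its 5 peaks.

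The remaining 21 runs overlapped no coding gene. Their nearest coding start lay 2.19 to 266 kb away, with a median of 28.3 kb, and 6 runs were within 10 kb of one. No promoter peak was present in 17 of the 21. The run farthest from a coding start had Ptger4 as its nearest (chr15:5459919-5468003, 266 kb), and the nearest was 4731417B20Rik (chr5:137093392-137104117, 2.19 kb). A run of 4 wide peaks lay 5762 bp from Ddit4, a stress-induced inhibitor of mTOR signalling (chr10:59420280-59437830). It held 11 TGGGAA sites, the most of any dense run, 8 of them in 1 peak of 1409 bp. Another dense run stood 36.4 kb beside it. The other nearest coding starts included those of Lta4h, Actb, Prss16, Slc25a25, Lrrc8d, Prss2, Plekhg6, Pla2g12b, Dnajb12, Btg1, Rassf3, Vdac1, Alox12, Bzrap1, Ly6e, Tmem63b and Satb1.

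Of these runs without a coding gene, 3 are described because of what lies there, a choice made after their values were seen. The run on chr6:41503380-41508695 had 4 peaks in 5.32 kb and took in the segment Trbv31 at the end of the TCR β locus, where the enhancer of that locus is known to lie between Trbc2 and Trbv31. It had 2 intergenic and 2 promoter peaks, and its widest peak, of 1073 bp and intergenic, held 4 of 5 TGGGAA sites. The run on chr11:87562215-87570649 covered the host transcript of Mir142, a microRNA of blood cells. The run on chr17:52018474-52023107, with 4 intergenic peaks in 4.63 kb, lay 45859 bp from Satb1, which encodes a chromatin organiser of thymocytes.

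In the 1 Mb around a dense run there were a median of 39 further peaks [35 to 44], compared with 36 [34 to 37] around runs of 3 and 27 [26 to 27] around single peaks. This count rests on spacing, like the choice of the runs, and is given as a description. The number of coding genes starting there was 21 [17 to 24], against 17 [16 to 19] and 12 [12 to 13]. Every autosome had a dense run, from 1 on chromosomes 12 and 16 to 21 on chromosome 11. Per Mb, chromosome 11 had 0.172 runs and chromosome 17 had 0.168. Neighbouring dense runs stood at most 100 kb apart in 8 cases, the closest being Per1 and the Hes7 run at 17.5 kb, and a group of 3 runs reached from Kcnh2 to Agap3 on chromosome 5.

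The share of promoter peaks among members was close to that of all autosomal peaks, which include the members. A transcript start lay within 1 kb of 225 member peaks (35.3% [31.7 to 39.1]), and the share of all autosomal peaks was 35.1%. The promoter share was lower in members on 13 autosomes and higher on 6. A start inside the peak itself was found for 24.5% [21.3 to 27.9] of members and 29.9% [29.4 to 30.4] of all autosomal peaks. The same share was 24.8% [23.8 to 25.8] in runs of 2 and 24.6% [22.6 to 26.7] in runs of 3, and all 3 intervals overlapped. The remaining members were intronic in 34.6% [31.0 to 38.4], exonic in 4.23% [2.92 to 6.09] and intergenic in 25.9% [22.6 to 29.4] of cases, compared with 30.6%, 2.79% and 31.5% of all autosomal peaks. By run, 42 had no promoter peak, 41 had 1, 32 had 2 and 35 had 3 or more. Only promoter peaks were present in 9 runs.

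Member peaks were narrower than autosomal peaks in general, and the difference was in the promoter peaks. The median width was 504 bp [489 to 541] in members and 548 bp [543 to 554] in all autosomal peaks, lower in members on 14 of 19 autosomes. Promoter peaks measured 631 bp [585 to 689] against 855 bp [847 to 862], whereas distal peaks measured 457 bp [432 to 476] against 465 bp [462 to 468], with overlapping intervals. Promoter peaks became narrower from single peaks (902 bp) through runs of 2 (732 bp) and runs of 3 (646 bp) to dense runs, as the plot by run length shows. In runs of 3 the median was 496 bp [484 to 512] for all peaks and 646 bp [615 to 680] for promoter peaks. Both intervals overlapped those of dense runs, so narrow peaks are not shown to be particular to dense runs. A start lay inside 156 of the 225 promoter peaks of dense runs, 7276 of 8110 of single peaks and 9536 of 11194 overall. The other promoter peaks lay beside a start, and their part in the width and CpG content of promoter peaks was not tested. Peaks wider than 1 kb made up 8.15% [6.27 to 10.5] of members and 14.6% [14.2 to 15] of all autosomal peaks. Within a run the widest peak had a median of 848 bp and the narrowest 349 bp, and in 73 of the 108 runs with a promoter peak the widest peak was one. When peaks within 1000 bp of each other were first joined into 1 interval, 68 runs with 295 intervals remained of the 150.

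**Figure D3:**
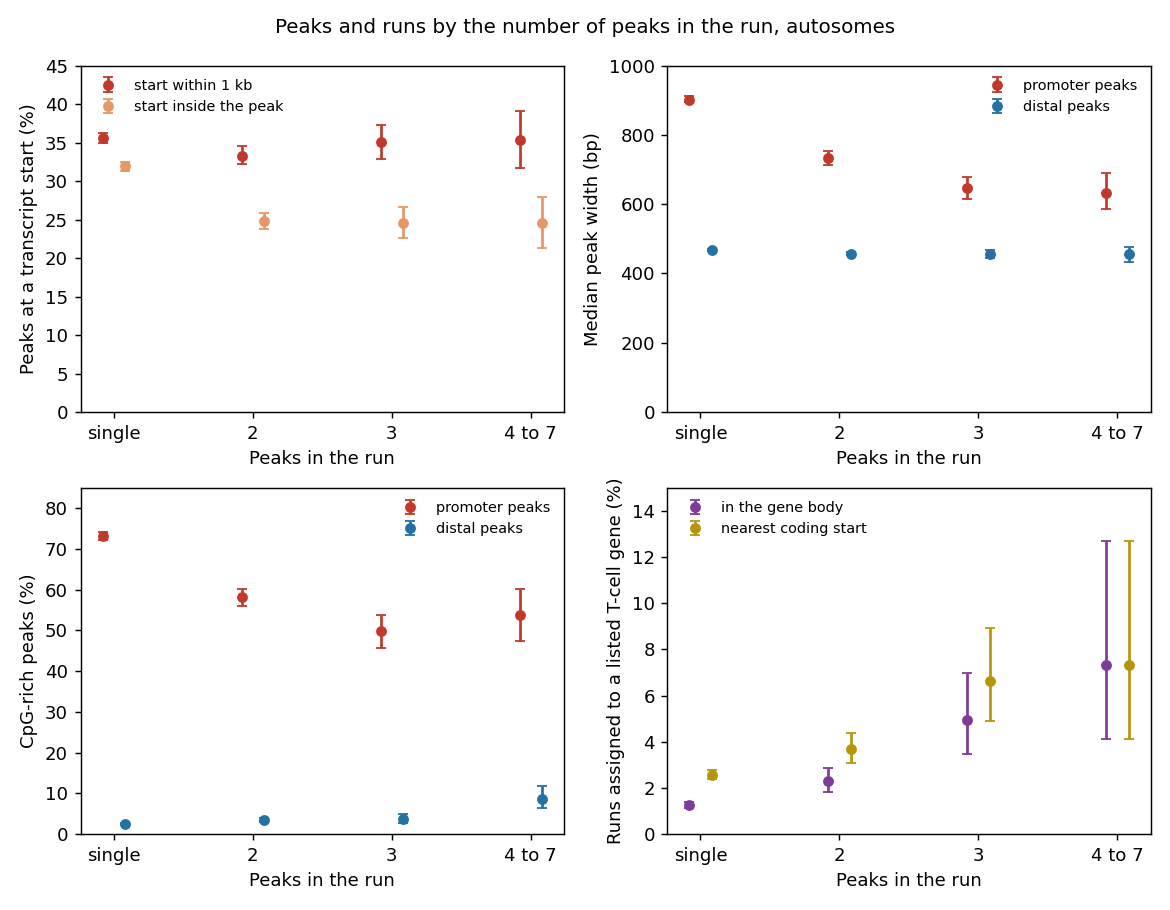
Peaks and runs by the number of peaks in the run, from single peaks to dense runs of 4 to 7, on the autosomes. The panels show the share of peaks at a transcript start in percent, the median width in bp, the share of CpG-rich peaks in percent and the share of runs assigned to a listed T-cell gene in percent, with points as values and bars as 95% counting intervals. Promoter peaks narrowed from 902 bp in single peaks to 631 bp in dense runs while distal peaks had medians of 457 to 468 bp, and the share in T-cell gene bodies went from 1.26% to 7.33%.

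CpG-rich sequence, meaning a GC content of 50% or more and a CpG content of 0.6 or more relative to that expected from the bases, made up 24.6% [21.4 to 28.1] of member peaks and 25.9% of all autosomal peaks. Promoter and distal peaks differed in opposite directions. Promoter peaks of dense runs were CpG-rich less often, in 53.8% [47.3 to 60.2] against 68.5% [67.7 to 69.4]. Distal member peaks were CpG-rich more often, in 8.72% [6.36 to 11.8] against 2.89% [2.67 to 3.13]. Runs of 3 had 49.8% [45.8 to 53.7] for promoter and 3.67% [2.73 to 4.92] for distal peaks. The intervals of dense runs and runs of 3 thus overlapped for promoter peaks and did not for distal peaks. Distal here means only more than 1 kb from a start. The 3 intergenic peaks of the Ccnd1 run, 1399 to 3439 bp from a start, were all CpG-rich, and a CpG-rich peak of the run near Actb lay 22320 bp from one. The intervals treat such neighbours as independent, so the distal share is not shown to be particular to dense runs. Mean GC content was 55.4% in members and 53.8% in all autosomal peaks, and 53.0% against 50.2% for distal peaks.

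The share of peaks with the RBPJ motif in the central 200 bp lay within counting error of the background. TGGGAA lay in the central 200 bp of 15.7% [13.1 to 18.7] of member peaks, and the share of all autosomal peaks was 15.3%. Over whole peaks, the degenerate motif TGRGAA (R for A or G) was less frequent, in 56.6% [52.7 to 60.4] of members against 62.4% [61.9 to 62.9]. Runs of 3 had 61.6% [59.3 to 63.8], which overlapped the interval of members. Members were also narrower, and the part of width in this share was not tested. A TGGGAA site in at least 1 peak, anywhere in its length, was found in 129 of the 150 runs, and in every peak only in the runs at Carkd and at Ppt2 with Prrt1. Since peaks of a run add up to a long sequence, a site somewhere in a run is common and marks no run in particular.

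Motifs of other factor families were sought in the same way on both strands. E-proteins were represented by the E-box CAGCTG, RUNX factors by TGTGGT and ETS factors by CGGAAG. The zinc finger factors of the family that includes GATA3 were represented by AGATAA, the factors TCF1 and LEF1 by CTTTGA, and SP and KLF factors by the GC box GGGCGG. In distal member peaks the RUNX motif was less frequent, in 17.4% [14.1 to 21.4] against 25.6% [25 to 26.2] of all distal autosomal peaks. The GC box GGGCGG was more frequent there, in 17.7% [14.3 to 21.6] against 9.18% [8.79 to 9.58]. In promoter member peaks the E-box was more frequent, in 20.9% [16.1 to 26.7] against 13.3% [12.7 to 14], and the ETS motif was less frequent, in 14.7% [10.6 to 19.9] against 22% [21.2 to 22.8]. Runs of 3 stood between these values, with intervals that overlapped those of dense runs for each of these motifs. Their distal peaks had the RUNX motif in 21.7% [19.5 to 24.2] and the GC box in 13.5% [11.7 to 15.6], and their promoter peaks had the E-box in 17% [14.2 to 20.1] and the ETS motif in 16.6% [13.9 to 19.8]. The 4 differences from all autosomal peaks are thus not shown to be particular to dense runs. For every other motif, in promoter or distal peaks, the intervals of members and of all autosomal peaks overlapped. GC content moves with these shares, and its part in them was not tested.

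**Figure D4:**
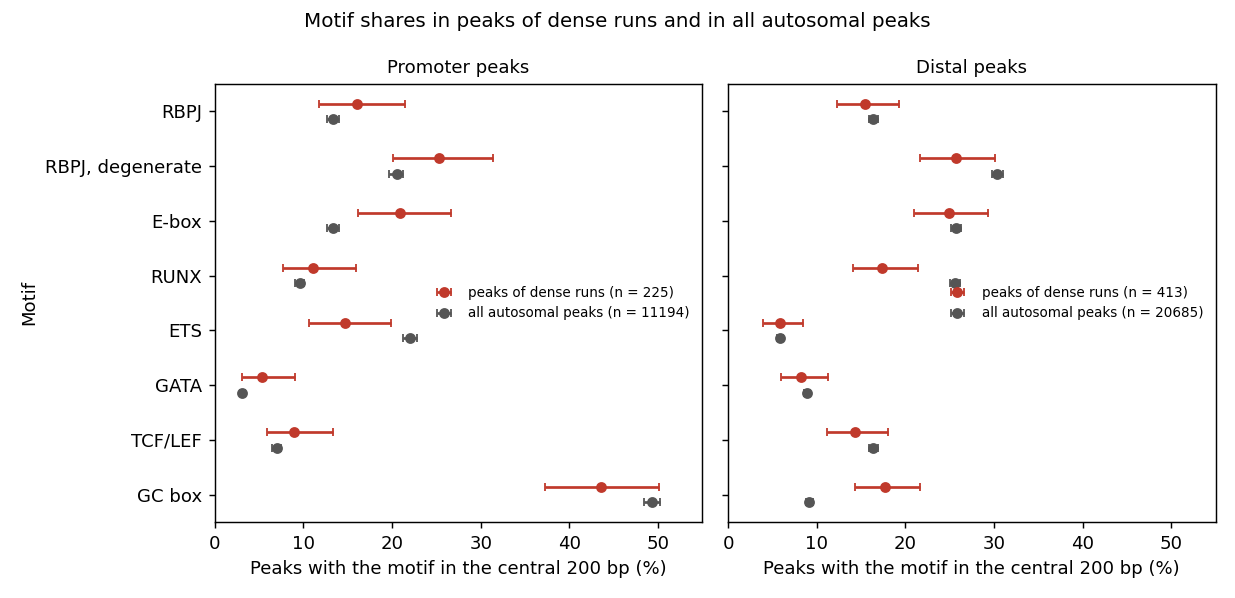
Share of peaks in percent with each motif in the central 200 bp, for promoter peaks (left) and distal peaks (right). Points are shares and bars 95% Wilson intervals, with peaks of dense runs in red and all autosomal peaks in grey. In distal peaks of dense runs the RUNX motif stood at 17.4% and the GC box at 17.7%, against 25.6% and 9.18% of all distal autosomal peaks.

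Repeated sequence contributed little. A near-identical copy was found for 9 of the 638 member peaks (1.41% [0.744 to 2.66]) and for 1.94% [1.79 to 2.09] of all autosomal peaks. These 9 peaks were in 5 runs, at Camk2b, Mettl7a1, Lrguk and Dhx40 and in an intergenic run near Pla2g12b on chromosome 10, where 3 of 4 peaks had a copy. No dense run consisted of copied peaks alone.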

How the data were processed

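The data were 1 list of ATAC-Seq intervals that the authors merged over 3 GSI and 3 DMSO libraries of Beko cells (24 h). According to the study's methods, reads were trimmed, aligned to mm9 with HISAT2 2.2.1 keeping 1 alignment per read, freed of duplicates with Picard and used for calling peaks with MACS2 without input. Peaks present in at least 3 of 6 libraries were kept and blacklisted regions removed. The deposited values are interval positions in bp on each chromosome, with the score 0 throughout, so depth per library did not enter. A shift of read ends for the transposase was not given in the sources used here.

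Starts were read as counted from 0 and are printed counted from 1. Runs, genes (GENCODE annotation of NCBIM37, which is mm9) and motifs were evaluated with numpy 2.4.6, pysam 0.24.0 and scipy 1.17.1 in Python 3.11.15, and copies (80% of the peak at 95% identity) with minimap2 2.31. A promoter peak lay within 1 kb of any transcript start. Other peaks were placed by their centre and called distal. Shares have Wilson intervals and medians order-statistic intervals. The code for runs and motifs was checked on simulated data. Members, gene lists and measures were chosen with earlier results of these data known. The genes named followed a rule, which took runs with 6 or more peaks, runs in T-cell or Notch genes with values for the 12 with most peaks, runs without a gene and the widest peak, and all others by symbol. Of 187 listed T-cell genes, 186 were matched to the annotation and 182 were autosomal. Alternatives for the joining distance, run length, peak width, splitting, copies, chromosomes, start definition and motif are given in the closing section. A few of the named items are not reported here.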

Additional observations from a re-analysis of the deposited data

How the results depend on the processing

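The dense runs depended strongly on the joining distance. At 3000 bp there were 32 runs with 129 peaks, of which 4 lay in T-cell genes, with promoter peaks at 47.3% and TGGGAA in 21.7%. At 4000 bp there were 68 runs with 282 peaks, 4 in T-cell genes and 40.1% promoter peaks. At 6000 bp there were 272 runs with 1189 peaks and 19 in T-cell genes, and at 10000 bp 941 runs with 4486 peaks, 58 in T-cell genes and a median width of 544 bp. Runs of at least 3 peaks numbered 737 with 2399 peaks and 40 in T-cell genes, and runs of at least 5 numbered 26 with 142 peaks, 5 in T-cell genes and a median width of 562 bp. With peaks of at least 500 bp alone, 13 runs with 54 peaks were left, 1 in T-cell genes, with 63.0% promoter peaks and a median of 675 bp. Joining peaks within 1000 bp first gave 68 runs with 295 intervals. Distal peaks alone gave 47 runs with 197 peaks, 2 in T-cell genes and a median of 464 bp. Over these alternatives the share of runs in T-cell genes went from 4.26% of the 47 runs of distal peaks to 19.2% of the 26 runs of at least 5 peaks. The smallest set, of 13 runs, had 7.69%. A start inside the peak gave a promoter share of 24.5% and coding transcripts alone 27.9%. Whole peaks held TGGGAA in 39.8% of cases, against 42.4% of all autosomal peaks. The degenerate motif was present in the central 200 bp of 25.5%, against 26.9%. Without copied peaks there were 145 runs, and with all chromosomes 154, with 11 in T-cell genes either way. In all, 33 of 71 values kept within 1.5 times the count or within the counting interval. No paired analysis was possible because every value comes from 1 merged list, and the planned comparison of GSI with DMSO, with its replicate block and left-out libraries, was therefore not run.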
